A study of Mus musculus with 2 samples.

Results

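Excitatory projection neurons of the mouse neocortex are arranged in layers, and each layer expresses its own set of identity genes. The levels of 9 of these genes were compared between the cortex of *Rbfox3*-/- (KO) mice and that of wild-type (WT) mice. The genes were taken by symbol from a table of 37303 genes. *Cux1*, *Cux2* and *Rorb* mark the upper layers, and *Etv1*, *Fezf2*, *Bcl11b*, *Tbr1*, *Foxp2* and *Ctgf* mark the deep layers. Levels are given in FPKM, fragments per kilobase of transcript scaled to the size of the library. The mean of both libraries reached 1 FPKM, the limit used for all genes, for all 9.

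RNA had been taken from the right cortical hemisphere of male mice at postnatal day 56, and the series holds 1 KO library and 1 WT library. The KO mice were homozygous for the *Rbfox3* tm1a(EUCOMM)Hmgu allele on C57BL/6N, present in every cell of the animal, and the WT mice were littermates from crosses of heterozygotes. Both groups are labelled B6, no treatment is labelled, and how many mice each library holds is not given in the sources used here. With 1 library per genotype no test between KO and WT exists. The spread between animals is not known, and every difference below describes these libraries alone. *Rbfox3* itself, which encodes the splicing regulator known as NeuN, was at 6.46 FPKM in the KO library and at 57.3 FPKM in the WT library, 8.87-fold lower in KO.

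Layer identity is set during development by transcription factors that promote one projection type and repress others. *Fezf2* and its target *Bcl11b* specify neurons of layer 5 that project to the spinal cord and brainstem, and *Tbr1* specifies neurons of layer 6 that project to the thalamus. Many of them remain expressed in the adult, where they serve as markers of the layers. In bulk tissue, fewer cells of a type and less RNA per cell cannot be told apart.

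*Cux2*, which encodes a homeodomain protein of layers 2 to 4, stood furthest from equality among the 9 genes, and *Rorb*, which encodes a nuclear receptor of layer 4, had the largest change in the proportions of its isoforms. Both genes have a pair of start sites in RefSeq, and the 250 bases before each start are shown for that reason. They are read from GRCm38.p6, on the minus strand, on which both genes lie. Capitals mark matches to 6 motifs of the factors among these genes and of the basal machinery. The cut homeodomain motif was taken as ATCGAT. The half-site of ROR receptors such as the *Rorb* product was AGGTCA. The forkhead motif was TGTTTAC and the T-box motif was AGGTGTGA. The motif of ETS factors such as the *Etv1* product was CCGGAAGT, and the TATA box was TATAAA. All were searched on both strands.
Cux2 outer start, chr5:122049852-122050101: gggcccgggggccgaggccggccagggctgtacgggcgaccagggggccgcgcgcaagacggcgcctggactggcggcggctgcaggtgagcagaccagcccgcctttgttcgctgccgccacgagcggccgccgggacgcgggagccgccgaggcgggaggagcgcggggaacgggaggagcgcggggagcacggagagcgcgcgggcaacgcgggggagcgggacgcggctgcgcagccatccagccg
Cux2 inner start, chr5:122047826-122048075: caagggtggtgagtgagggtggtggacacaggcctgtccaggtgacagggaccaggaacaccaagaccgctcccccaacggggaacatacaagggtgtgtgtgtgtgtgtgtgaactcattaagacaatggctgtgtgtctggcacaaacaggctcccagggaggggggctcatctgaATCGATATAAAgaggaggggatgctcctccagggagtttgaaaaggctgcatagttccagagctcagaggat
Rorb outer start, chr19:19111197-19111446: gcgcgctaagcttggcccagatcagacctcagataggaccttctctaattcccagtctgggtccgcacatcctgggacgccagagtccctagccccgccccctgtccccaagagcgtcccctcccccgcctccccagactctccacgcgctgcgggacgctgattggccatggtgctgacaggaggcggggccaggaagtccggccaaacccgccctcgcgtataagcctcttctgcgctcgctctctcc
Rorb inner start, chr19:19001118-19001367: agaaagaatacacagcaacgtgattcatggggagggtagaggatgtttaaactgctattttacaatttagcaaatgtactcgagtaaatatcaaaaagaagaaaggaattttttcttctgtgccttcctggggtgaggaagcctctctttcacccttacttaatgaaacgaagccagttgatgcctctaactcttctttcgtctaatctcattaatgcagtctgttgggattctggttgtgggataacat
The capitals before the inner *Cux2* start are ATCGAT and TATAAA, which share a base. Of 32851 windows of this length before RefSeq starts, 0.728% hold ATCGAT and 12.4% hold TATAAA on either strand. No motif was found in the other 3 windows shown. The bases before the outer *Cux2* start are 80.0% G or C and those before the inner *Rorb* start 39.2%, with a median of 52.4% over all starts. RefSeq starts were listed for 7 of the 9 genes, 10 starts in all. Elsewhere among them TGTTTAC was found before *Cux1* and TATAAA, in reverse, before 1 of the *Etv1* starts, against 3.17% of all windows for TGTTTAC. The ROR, T-box and ETS motifs were found before none of the 10 starts, against 14.0%, 1.12% and 2.88% of all windows. A match is a description of the letters and not of a bound site. The isoform rows carry no transcript names, so none of the isoforms described further on is tied to either start.

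The upper-layer genes were all higher in the KO library, as were 54.4% of all genes whose mean reached 1 FPKM. *Cux2* (ENSMUSG00000042589, GRCm38 chr5:121856366-122050102, minus strand) was at 32.0 FPKM in KO against 18.4 FPKM in WT, 1.74-fold higher. With a pseudocount of 1 FPKM, used for all log2 ratios of KO to WT, its ratio was 0.77. Among 5998 genes with a mean of 10 to 100 FPKM, 0.417% had a ratio at least as high. A second entry of the table also carries the name *Cux2* under an identifier that is absent from the GENCODE M21 annotation of this build. It was at 2.59 FPKM in KO and 2.94 FPKM in WT, and with its values added the log2 ratio of *Cux2* was 0.67. An antisense gene that overlaps *Cux2*, *Gm15637*, was listed at 0 in both libraries. The deposited locus of *Cux2* runs past the annotated end to the far end of that gene, 122055654.

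*Cux1* (ENSMUSG00000029705, chr5:136248135-136567490, minus strand) encodes the other cut homeodomain protein of the upper layers. It was at 24.6 FPKM in KO against 19.4 FPKM in WT, 1.27-fold higher, with a log2 ratio of 0.33. Of the genes at 10 to 100 FPKM, 4.80% had a ratio at least as high, so that *Cux1* lay nearer to the bulk of genes than *Cux2* did. Its antisense neighbour *Gm16599* was at 0.150 FPKM in KO against 0.0340 FPKM in WT. *Rorb* (ENSMUSG00000036192, chr19:18930605-19111196, minus strand) was at 10.4 FPKM in KO against 9.39 FPKM in WT. Its log2 ratio was 0.14, and 28.5% of the 6481 genes with a mean of 1 to 10 FPKM had a ratio at least as high. The *Rorb* level therefore differed no more between the libraries than that of many genes of its range.

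**Figure D1:**
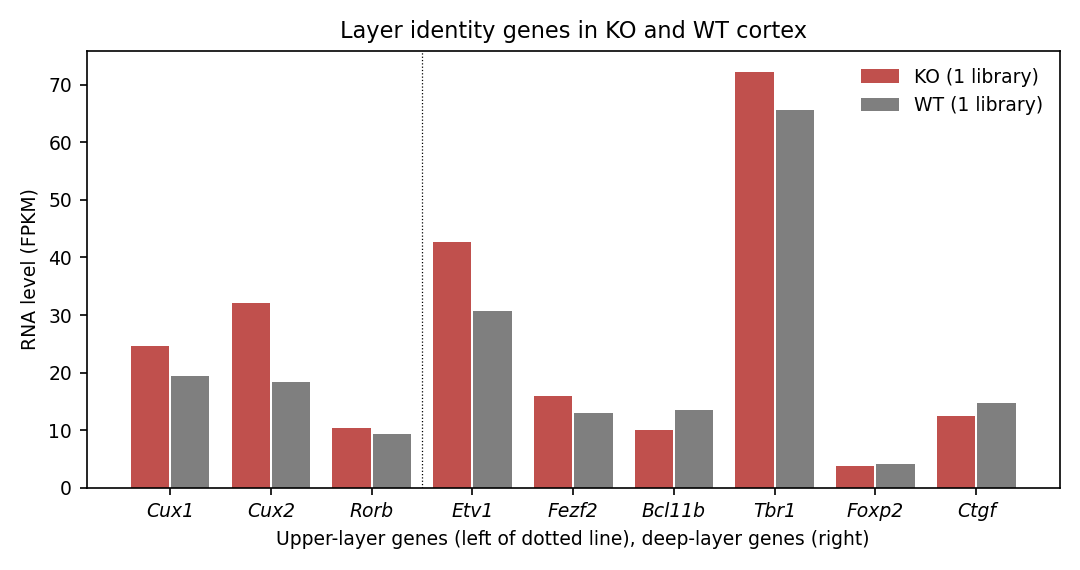
RNA level in FPKM (vertical axis, from 0) of the 9 layer identity genes, with a red bar for the KO library and a grey bar for the WT library, and no error bars because each genotype has 1 library. All 3 upper-layer genes are higher in KO, whereas of the deep-layer genes *Etv1*, *Fezf2* and *Tbr1* are higher and *Bcl11b*, *Foxp2* and *Ctgf* are lower. Of all genes whose mean reached 1 FPKM, 54.4% were higher in KO.

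The deep-layer genes were divided, with 3 higher and 3 lower in the KO library. *Etv1* (ENSMUSG00000004151, chr12:38779380-38870484, plus strand), which encodes an ETS transcription factor of layer 5, was highest among them in ratio. It was at 42.7 FPKM in KO against 30.6 FPKM in WT, 1.39-fold higher, with a log2 ratio of 0.47. A ratio at least as high was found for 1.68% of the genes at 10 to 100 FPKM. *Fezf2* (ENSMUSG00000021743, chr14:12342094-12348189, minus strand), a zinc finger regulator of subcerebral projection neurons, was at 15.9 FPKM in KO against 13.1 FPKM in WT. Its log2 ratio was 0.26, and 8.70% of genes of its range were at least as high.

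*Bcl11b* (ENSMUSG00000048251, chr12:107910403-108003602, minus strand) encodes the zinc finger protein CTIP2, which acts below *Fezf2* in these neurons. It was at 9.96 FPKM in KO against 13.6 FPKM in WT, 1.36-fold lower, with a log2 ratio of -0.41. A ratio at least as low was found for 1.70% of the genes at 10 to 100 FPKM. *Fezf2* and *Bcl11b* thus stood on opposite sides of equality. *Bcl11b* is also expressed by the medium spiny neurons of the striatum. Of 14 measured striatal genes, 13 had a log2 ratio of at most -0.32, against 5.52% of all genes. The median log2 ratio of the 14 was -0.95, and their summed level was 137 FPKM in KO and 289 FPKM in WT. *Penk* and *Adora2a* had the lowest ratios in that list (-2.11 and -1.85), *Foxp1* (0.09) and *Rasd2* (-0.51) the highest. Below the filter, *Isl1* was listed at 0 in KO, against 0.378 FPKM in WT, and *Six3* was at 0.0085 FPKM in KO against 0.466 FPKM in WT. The part of striatal RNA in the *Bcl11b* difference was not tested.

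*Tbr1* (ENSMUSG00000035033, chr2:61802930-61814114, plus strand), which encodes a T-box factor of layer 6, was the most abundant of the 9 genes. It was at 72.3 FPKM in KO against 65.5 FPKM in WT, with a log2 ratio of 0.14, and 23.9% of genes of its range were at least as high. *Foxp2* (ENSMUSG00000029563, chr6:14901349-15441977, plus strand), a forkhead factor of layer 6 that striatal neurons express as well, was the least abundant. It was at 3.85 FPKM in KO against 4.14 FPKM in WT, with a log2 ratio of -0.09, and 29.9% of genes of its range were at least as low. Neither gene stood apart from the bulk of genes. The part of the striatal genes described above in the *Foxp2* value was not tested.

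*Ctgf* (ENSMUSG00000019997, named *Ccn2* in the annotation, chr10:24595442-24598683, plus strand) encodes a secreted matrix protein and marks the subplate neurons of layer 6b, though other cells can express it. It was at 12.4 FPKM in KO against 14.7 FPKM in WT. Its log2 ratio was -0.23, and 7.80% of genes of its range were at least as low. An antisense gene, *Gm15270*, overlaps *Ctgf*, and the deposited locus of *Ctgf* starts at the far end of that gene, 24549441. *Gm15270* was at 0.754 FPKM in KO against 0.422 FPKM in WT. The library kit keeps strand, but whether strand was used in counting is not given in the sources used here. *Cyr61*, a relative of *Ctgf* chosen here after its values were seen, was at 8.83 FPKM in KO against 1.01 FPKM in WT. It belongs to the immediate early genes, of which all 14 measured had a higher value in KO, against 54.4% of all genes. Their median log2 ratio was 2.10, and they summed to 435 FPKM in KO and 131 FPKM in WT. *Ctgf* did not share that direction, and the part of these genes in the layer gene values was not tested.

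**Figure D2:**
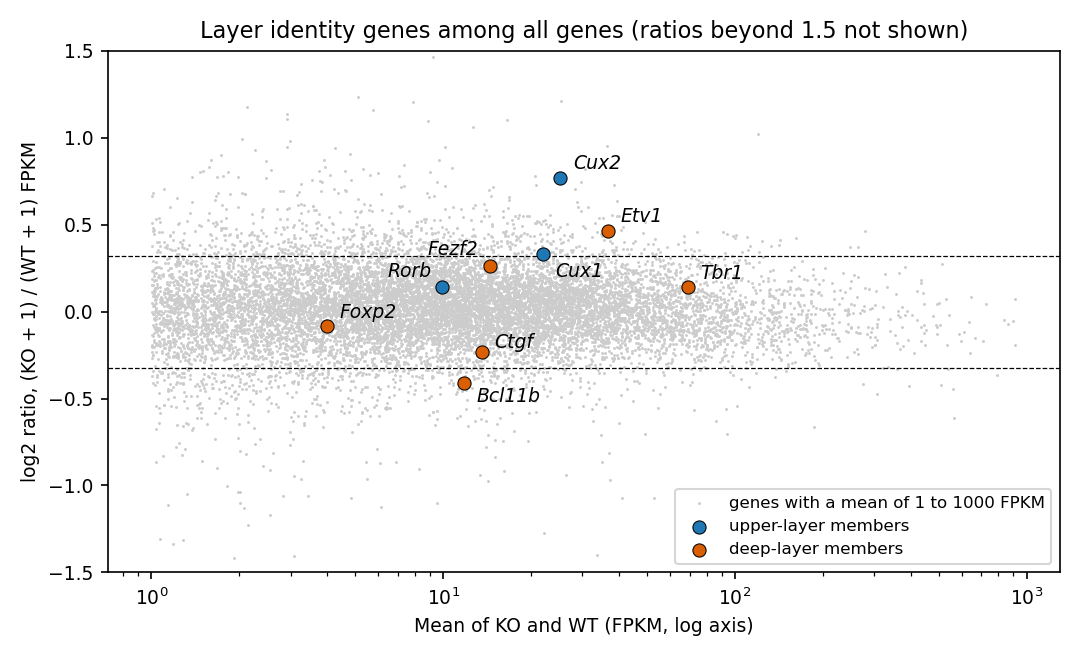
Log2 ratio of KO to WT with a pseudocount of 1 FPKM (vertical axis) against the mean of both libraries in FPKM (horizontal log axis). Genes whose mean reached 1 FPKM are in grey, without the most abundant ones and those with ratios beyond the axis. Upper-layer genes are in blue and deep-layer genes in orange, with dashed lines at log2 ratios of 0.32 and its negative. *Cux2* (0.77), *Etv1* (0.47) and *Bcl11b* (-0.41) lie past the dashed lines, *Cux1* (0.33) lies at the upper dashed line, and the other 5 genes lie between the lines.

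None of the 9 genes reached a 2-fold difference, which 1.07% of the 13042 genes whose mean reached 1 FPKM did. A log2 ratio of at least 0.32 in either direction, the smaller limit used here, was seen for 4 of the 9 genes (44.4%), against 12.5% of all genes tested. All 4 were among the 7 genes with a mean of 10 to 100 FPKM, a range in which 8.85% of all genes passed this limit. *Cux1*, *Cux2* and *Etv1* were higher in KO by this measure (33.3%, against 6.95% of all genes) and *Bcl11b* was lower (11.1%, against 5.52%). With ratios centred on the median of all genes, *Cux1* (0.31) fell short of the limit. Of the 9 genes, 6 had a ratio above 0 and 3 below it, while 54.4% of all genes were above 0 and 45.6% below. The order of the levels was similar in both libraries. *Tbr1*, *Etv1* and *Foxp2* were ranked 1, 2 and 9 in KO as in WT. *Cux2* was above *Cux1* in KO but below it in WT, and *Fezf2* was above *Ctgf* and *Bcl11b* in KO but below both in WT. *Rorb* was above *Bcl11b* in KO and below it in WT. Whether neighbours in this order differ beyond the spread of animals cannot be known with 1 library each, and with 2 libraries no likeness of pattern to other genes can be measured.

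As a class, the upper-layer genes lay higher than the deep-layer genes. The median log2 ratio was 0.33 for the 3 upper-layer genes and 0.03 for the 6 deep-layer genes, a difference of 0.30, and the median over all genes tested was 0.02. Summed over the class, the upper-layer genes were at 67.1 FPKM in KO against 47.1 FPKM in WT, 1.42-fold higher. The deep-layer genes were at 157 FPKM in KO against 142 FPKM in WT, 1.11-fold higher. The ratio of the upper-layer sum to the deep-layer sum was 0.427 in KO and 0.333 in WT. The classes overlapped, since *Etv1* and *Fezf2* were above *Rorb*. Without *Cux2* the upper-layer sum was 1.22-fold higher and the difference of medians was 0.21. Without *Bcl11b* and *Foxp2*, the genes shared with the striatum, the deep-layer median was 0.20 and the difference of medians was 0.13. Without *Etv1* the deep-layer sum was 1.03-fold higher, the deep-layer median was -0.09 and the difference of medians was 0.42. Without *Ctgf* the deep-layer median was 0.14 and the difference 0.19.

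By their medians, further layer genes did not show the same division. Their sums differed in direction, with further upper-layer genes at 303 FPKM in KO against 285 FPKM in WT. Further layer 5 genes summed to 390 FPKM in KO against 464 FPKM in WT, of which *Pcp4* alone was 235 against 314 FPKM. Further genes of layer 6 and the subplate summed to 123 FPKM in KO against 142 FPKM in WT. Of 17 further upper-layer genes that were measured, 8 had a ratio above 0 and 9 below 0, with a median of -0.01. Past the limit of 0.32, 5 of them were higher in KO (6.95% of all genes) and 4 were lower (5.52% of all genes). *Pou3f2* and *Pvrl3* were highest. *Pou3f2*, which encodes a POU factor of upper-layer neurons, was at 16.6 FPKM in KO against 11.0 FPKM in WT. *Pvrl3*, which encodes the adhesion protein nectin-3, was at 26.2 FPKM in KO against 17.9 FPKM in WT. *Inhba*, a subunit of activin, was lowest, at 0.873 FPKM in KO against 2.49 FPKM in WT. *Mdga1*, a membrane protein of layer 2 and 3 neurons, followed at 1.51 FPKM in KO against 2.99 FPKM in WT.

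Of 13 further layer 5 genes the median log2 ratio was -0.02. Past the limit, 4 were higher in KO (6.95% of all genes) and 2 were lower (5.52% of all genes). *Fam84b* was highest, at 4.09 FPKM in KO against 2.43 FPKM in WT. *Deptor*, which encodes an inhibitor of mTOR, followed at 7.36 FPKM in KO against 5.20 FPKM in WT. *Pcp4*, a calmodulin-binding protein that the striatum also expresses, was lowest, at 235 FPKM in KO against 314 FPKM in WT. *Bhlhe22*, a transcription factor of area and projection identity, was at 19.3 FPKM in KO against 25.6 FPKM in WT.

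Of 13 further genes of layer 6 and the subplate the median was 0.01. None was higher in KO past the limit (6.95% of all genes) and 4 were lower (5.52% of all genes). *Moxd1* had the lowest ratio, at 2.39 FPKM in KO against 4.28 FPKM in WT. *Rprm*, a layer 6 marker, followed at 25.9 FPKM in KO against 38.6 FPKM in WT. *Zfpm2* and *Sox5* were highest, with log2 ratios of 0.29 and 0.24. *Sox5*, a repressor of the layer 5 programme in layer 6 neurons, was at 12.1 FPKM in KO against 10.05 FPKM in WT. With all further genes included, 20 upper-layer genes had a median of 0.086 and 32 deep-layer genes a median of -0.01, a difference of 0.094.

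Of 19 regulators of projection neuron identity that were measured, 4 passed the limit of 0.32, against 12.5% of all genes. Of these, 3 were higher in KO, against 6.95% of all genes, and 1 was lower, with a median over the list of 0.04. *Pou3f2*, described above, was highest. After *Bhlhe22*, *Zfp238* was lowest, at 124 FPKM in KO against 141 FPKM in WT. Genes of excitatory neurons in general had a median of 0.05 over 10 genes, with *Nrgn* (-0.19) and *Neurod1* (-0.17) lowest and *Neurod2* at 0.18. *Slc17a7*, the vesicular glutamate transporter of cortical excitatory neurons, was at 302 FPKM in KO against 276 FPKM in WT. It was thus abundant in both libraries, which does not test how the tissue was dissected. Of these 10 genes, 9 were within the limit. Of 14 genes of inhibitory neurons 13 were within the limit (median 0.08). Past the limit were 12.5% of all genes, so neither count stands out.

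**Figure D3:**
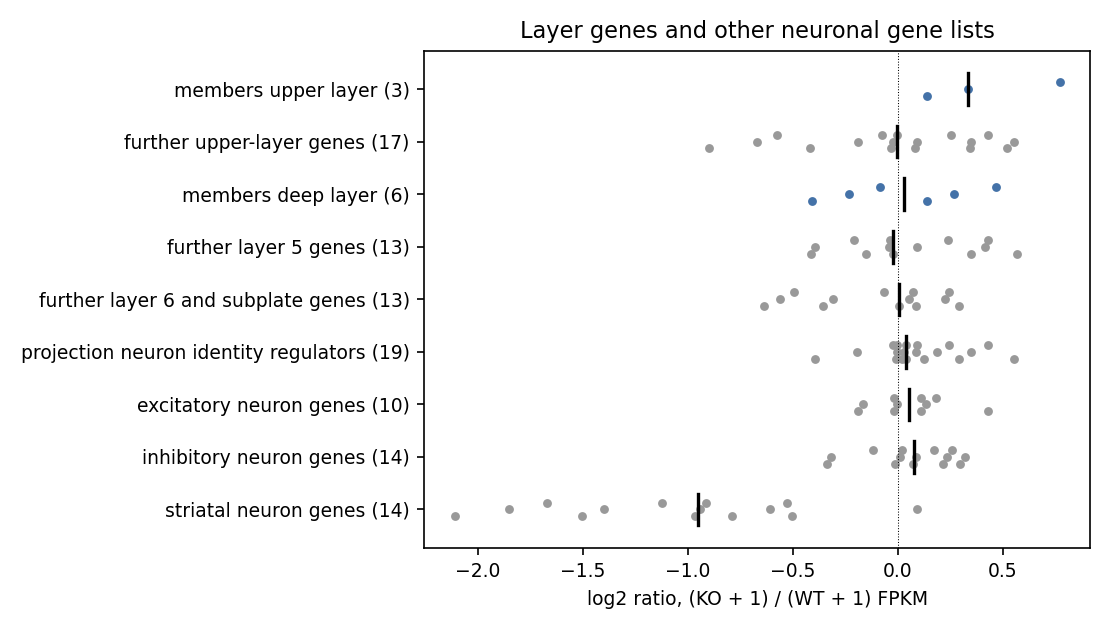
Log2 ratio of KO to WT (horizontal axis, pseudocount of 1 FPKM) for each measured gene of 9 lists (rows, with the number of genes), where points are genes, blue points are the layer identity genes and black ticks are medians. The median of the 3 upper-layer genes (0.33) lies to the right of that of the 17 further upper-layer genes (-0.01), whose points spread on both sides of 0, and that of the 14 striatal genes (-0.95) lies furthest to the left.

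The proportions of isoforms were compared for the 8 genes with more than 1 isoform. The isoform shift of a gene is 50% of the summed absolute differences between its isoforms' shares, so that 0 means equal proportions. It was 0.252 for *Rorb*, 0.194 for *Cux1* and 0.188 for *Cux2*. Shifts at least as large were found for 12.02% of all genes in the case of *Cux1* and 12.9% in that of *Cux2*. It was 0.0924 for *Foxp2*, 0.0485 for *Etv1*, 0.0255 for *Bcl11b*, 0.00262 for *Ctgf* and 0.00164 for *Tbr1*. *Fezf2* has a single isoform in the table and gives no shift. Over 8677 genes the median shift was 0.0656. A shift of at least 0.2 was seen for 1 of the 8 genes, against 11.3% of all genes, so the count itself does not stand out.

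The 2 abundant *Rorb* isoforms exchanged places. One was at 4.02 FPKM in KO against 5.81 FPKM in WT, or 38.5% of *Rorb* RNA in KO and 61.9% in WT. The other was at 6.22 FPKM in KO against 3.41 FPKM in WT, or 59.6% in KO and 36.3% in WT. The nearly equal gene level of *Rorb* was thus the sum of a lower and a higher isoform. Of all genes with a shift, 6.95% had one as large.

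In *Cux2* the higher gene level lay mainly in the second isoform, which was at 14.9 FPKM in KO against 5.67 FPKM in WT, 2.62-fold higher. The first isoform was at 15.0 FPKM in KO against 11.95 FPKM in WT. Their shares were 46.5% and 46.7% in KO, and 30.9% and 65.1% in WT. In the KO library both isoforms were thus about equally abundant. A further isoform was at 1.43 FPKM in KO against 0.665 FPKM in WT.

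*Cux1* has 15 isoform rows, of which 5 reached 1 FPKM in either library. One of these was at 4.87 FPKM in KO against 0.628 FPKM in WT, 7.75-fold higher, and its share was 19.8% in KO and 3.24% in WT. The most abundant isoform was at 7.78 FPKM in KO against 8.09 FPKM in WT, and the next at 7.05 FPKM in KO against 5.84 FPKM in WT. The remaining pair were at 1.15 and 2.75 FPKM in KO against 2.24 and 1.96 FPKM in WT. The *Cux1* gene also encodes CASP, a Golgi protein without the homeodomain, and which rows belong to it is not given. Most of the difference in *Cux1* thus lay in 1 isoform of low level in WT.

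**Figure D4:**
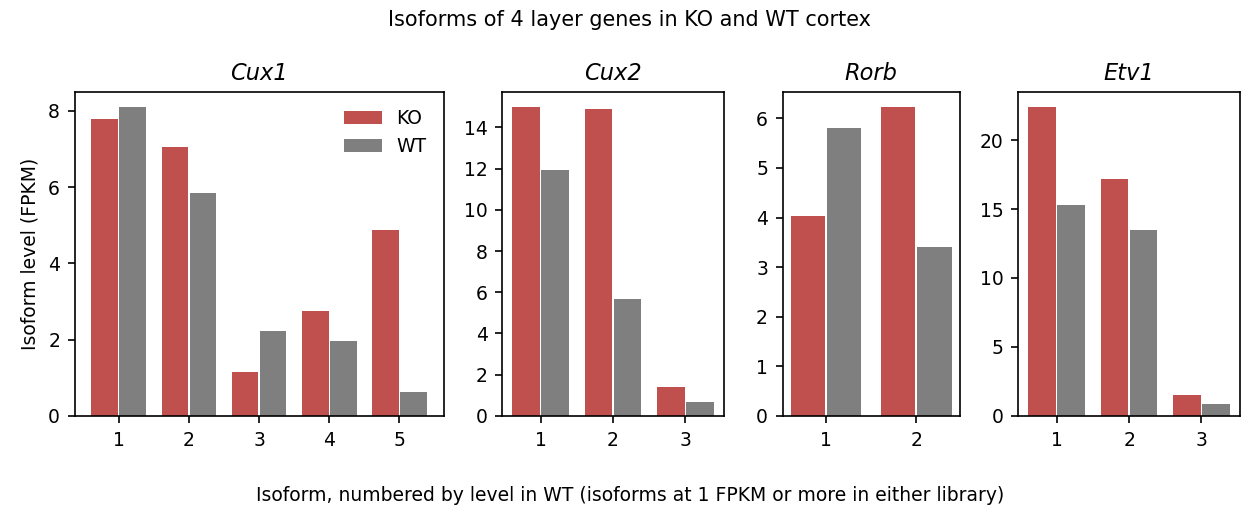
Isoform level in FPKM (vertical axes, each from 0) of *Cux1*, *Cux2*, *Rorb* and *Etv1*, with isoforms numbered by their level in WT, red bars for the KO library and grey bars for the WT library. The order of the *Rorb* isoforms is turned round in KO, *Cux2* isoform 2 reaches 14.9 FPKM in KO against 5.67 FPKM in WT, and the 3 *Etv1* isoforms shown are all higher in KO.

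Among the deep-layer genes, the 3 *Etv1* isoforms that reached 1 FPKM, of 13, were all higher in KO. The first was at 22.4 FPKM in KO against 15.3 FPKM in WT, and the second at 17.2 FPKM in KO against 13.4 FPKM in WT. A further one was at 1.51 FPKM in KO against 0.828 FPKM in WT. The lower level of *Bcl11b* lay in its main isoform, at 9.42 FPKM in KO against 13.2 FPKM in WT, which made up 94.5% of its RNA in KO and 97.1% in WT. *Foxp2* has 19 rows, and its main isoforms were at 2.46 and 1.23 FPKM in KO against 2.41 and 1.54 FPKM in WT. A single isoform made up 99.0% of *Tbr1* in KO and 98.9% in WT, and 96.8% of *Ctgf* in KO and 97.1% in WT. Isoform FPKM divides reads that several isoforms share, and its error is not given in the values used.

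Other cell types also differed between these libraries. All 10 oligodendrocyte genes were lower in KO past the limit of 0.32, as were 5.52% of all genes. Their median was -0.52, and they summed to 1130 FPKM in KO and 1655 FPKM in WT. Of 9 meningeal and choroid plexus genes 5 were lower past the limit (median -0.34), against the same 5.52% of all genes. *Ttr*, the choroid plexus transthyretin, was at 3.71 FPKM in KO against 221 FPKM in WT. The medians of astrocyte (-0.05), microglia (-0.11), endothelial and mural (-0.03), hippocampal (0.02) and thalamic genes (0.07) were nearer to 0. Past the limit, 2 of 8 astrocyte, 2 of 6 hippocampal and 1 of 11 endothelial and mural genes were lower (5.52% of all genes). Of 6 thalamic genes 1 was higher (6.95% of all genes), and none of 8 microglia genes passed the limit (12.5% of all genes). The part of these differences in the layer genes was not tested.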

How the data were processed

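RNA from the cerebral cortex of 1 KO and 1 WT library was analysed. Per the labels, the authors used TopHat and Cufflinks on GRCm38 (versions not given in the sources used here), after a strand-specific library kit. The extraction note in the labels covers cortex or hippocampus, and the source label of both libraries is cortex. The deposited gene table and isoform table give FPKM. The deposited p-values, q-values, ratios and term lists are the authors' own comparisons and were not used. FPKM gives no counts, so no counting interval is printed. Among 1951 genes with 1 isoform and values under 0.3 FPKM, a KO to WT ratio of 0.887 recurred in 87, so that 1 fragment may be worth 0.887 times as much in KO as in WT, but the depth of neither library is known.

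Log2 ratios were computed as KO + 1 over WT + 1 FPKM, with Python 3.11.15 and pandas 2.3.3, where the mean of both reached 1 FPKM. Differences were counted from a log2 ratio of 0.32 or from 2-fold, and 0.32 is log2 of 1.25, rounded. Isoform shifts were computed for genes with at least 2 isoforms and 1 FPKM in both libraries. Simulated data checked only the code for 2-fold calls and for the isoform shift. The limit of 0.32 was not simulated, so no error rate is known for the calls made with it. Positions come from GENCODE M21 and upstream bases from RefSeq. The genes and lists were chosen with earlier results of these data known. Named are the 9 genes, their isoforms at 1 FPKM or more, *Rbfox3*, and the 2 highest and 2 lowest genes of the layer, regulator, excitatory and striatal lists (the others are given as counts or medians). Of the genes this rule names, 1 is not reported here. *Cyr61*, the antisense genes, *Isl1*, *Six3*, *Slc17a7*, *Npy*, *Pvalb* and *Ttr* were added after their values were seen. Alternatives were the pseudocount, centring, summed isoforms, the filter, the mean, the choice of members and, for isoform shifts, a minimum isoform level.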

Additional observations from a re-analysis of the deposited data

How the results depend on the processing

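The alternatives were a pseudocount of 0.1 FPKM, centring on the median of all genes, summed isoform rows, no filter or a mean of at least 5 FPKM, the mean in place of the median, the choice of members, and, for isoform shifts, only isoforms that reached 1 FPKM. They gave 87 values, of which 83 stayed within a set margin, but many of the 87 could hardly leave it. Isoform rows sum to the gene level, and centring takes the same 0.02 from every log2 ratio. All 9 genes pass the filter of 1 FPKM, so removing it changes none of them. With the second *Cux2* entry added, *Cux1* is still the upper-layer median. The count of 83 therefore says little about how far the class difference depends on the genes chosen. The margin was 0.17 for log2 ratios, which is 50% of the central range (percentiles 16 to 84) over genes whose mean reached 10 FPKM, a factor of at most 1.5 for counts, and the same side of 0.2 for isoform shifts. Without *Bcl11b* and *Foxp2* the deep-layer median was 0.20 and the upper minus deep difference 0.13. With the further layer lists included the upper-layer median was 0.086 and the difference 0.094. Both changes follow from the genes used. The deep-layer median, near 0, turned negative with those lists (-0.01) and without *Etv1* (-0.09). After centring, *Cux1* (0.31) was under the limit of 0.32 and 3 members were past it, 2 of them higher in KO. Of all genes, 12.1% were past it after centring. That share was 17.4% with a pseudocount of 0.1 FPKM, 6.04% without the filter and 9.99% at a mean of at least 5 FPKM. In each of those settings 4 members were past the limit. Over isoforms that reached 1 FPKM the *Foxp2* shift was 0.0569, against 0.0924 over all its isoforms. Leaving out *Cux2* or *Etv1* and adding the second *Cux2* entry were chosen after seeing the data. No replicate could be left out, and no paired analysis was possible because each genotype has 1 library. Depth is unknown, so what it limits cannot be given.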
